A study of Mus musculus with 3 samples.

Results

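Interferon-stimulated genes (ISGs) were followed in γδNKT thymocytes that differed in the dose of PLZF, the zinc finger transcription factor encoded by Zbtb16. The list held 40 genes, chosen by name from the known response to type I interferon, with earlier results of these data known. Of them 37 had a probe set of their own among the 19518 genes measured. Ifi44 and Phf11b had no probe set annotated to them alone, and the probe set of Isg15 also lists Gm9706, so these 3 genes have no value here. Each of the 37 was measured by a single probe set.

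The samples were CD4+CD8- thymocytes, put through a second sort into lysis reagent, of female mice on the C57BL/6 background aged 3 to 4 weeks. There was 1 Affymetrix Mouse Gene 1.0 ST array for each of PLZF+/+, PLZF+/lu and PLZFlu/lu, where lu is luxoid, a point mutation in the PLZF gene. Per the study's methods all 3 genotypes lacked Rag1 and carried rearranged Vγ1Vδ6.4 T cell receptor transgenes, and most but not all cells of that transgenic line make PLZF. The sources used here do not say how many mice went into an array. With 1 array per genotype no test was possible, values have no replicate error, and the genotype, the animal and the sort of an array cannot be told apart.

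Triplets of intensities below always run in the order PLZF+/+, PLZF+/lu, PLZFlu/lu. Zbtb16 itself was at 8796, 6143 and 2890. Of 10 T cell markers 9 were measured, among them Cd3e between 10550 and 11334 and Cd4 between 6208 and 7191. The arrays had medians of 159.7 to 161.8, and 45.1% of all probe sets had the same deposited value on all 3 arrays. The values of 1033 olfactory receptor probe sets, genes that T cells are not known to use, served as a floor: 95% of them lie below 108. Of the 37 ISGs, 35 lay above 108 on every array, the exceptions being Mx1 and Mx2.

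Type I interferons bind the receptor made of IFNAR1 and IFNAR2, whose kinases JAK1 and TYK2 phosphorylate STAT2. With IRF9 it is part of the complex ISGF3, which binds the interferon-stimulated response element (ISRE) in the promoters of a large set of genes. Their products sense foreign nucleic acid, block viral translation and replication, tag proteins with the ubiquitin-like ISG15 and amplify or end the response. In the thymus a low interferon tone is known in the absence of infection. PLZF has itself been described as a regulator of part of this program in other cells.

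Since these genes are known to share the ISRE, the letters of their promoters were read first, and they played no part in the choice of members. RefSeq windows of 300 bases, from 250 before to 50 after a transcript start on GRCm38.p6, were given for 31 of the 40 genes. The core of the ISRE was searched as GAAA followed after any 2 bases by GAAA again, on both strands. It occurred in a window of 12 of the 31 ISGs (38.7%), against 3.99% of the 27025 genes with windows. TTCNNNGAA, the core of the gamma-activated sequence of interferon-γ-induced genes, occurred in 7 of the 31 ISGs (22.6%), against 9.55% of all genes. Of the ISGs, Bst2 and Eif2ak2 held both. A match describes letters in these windows, and where no match was found nothing follows about the factor. Shown here, 5′ to 3′ along the strand of the gene, are matches upstream of the 4 ISGs that both held the core before the start and differed between arrays by more than 1.5-fold (below), with the core in capitals. Ifit1, Oas3 and Ddx60 are given only from bases outside the annotated span of the gene itself. Ddx60 stops before a further match, nearer to its start and not wholly outside that span, which is not shown. The Ifit3 window lies within the span of a longer model of that gene, so only 30 bases around each match are given.
Ifit1 (chr19:34640719-34640888, plus strand): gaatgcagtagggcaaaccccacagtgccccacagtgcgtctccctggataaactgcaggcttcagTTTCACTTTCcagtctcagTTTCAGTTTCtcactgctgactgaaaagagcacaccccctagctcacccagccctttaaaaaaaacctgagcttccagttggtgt
Oas3 (chr5:120777685-120777829, minus strand): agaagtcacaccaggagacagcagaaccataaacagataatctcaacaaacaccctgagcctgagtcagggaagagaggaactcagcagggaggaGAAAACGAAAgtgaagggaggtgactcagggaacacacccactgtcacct
Ddx60 (chr8:61927917-61928067, plus strand): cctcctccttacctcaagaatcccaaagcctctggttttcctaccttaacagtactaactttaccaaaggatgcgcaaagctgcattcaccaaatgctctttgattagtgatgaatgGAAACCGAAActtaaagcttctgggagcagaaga
Ifit3, outer match (chr19:34583363-34583392, plus strand): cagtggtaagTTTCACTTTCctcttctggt
Ifit3, inner match (chr19:34583397-34583426, plus strand): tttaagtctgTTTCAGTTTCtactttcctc

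**Figure D1:**
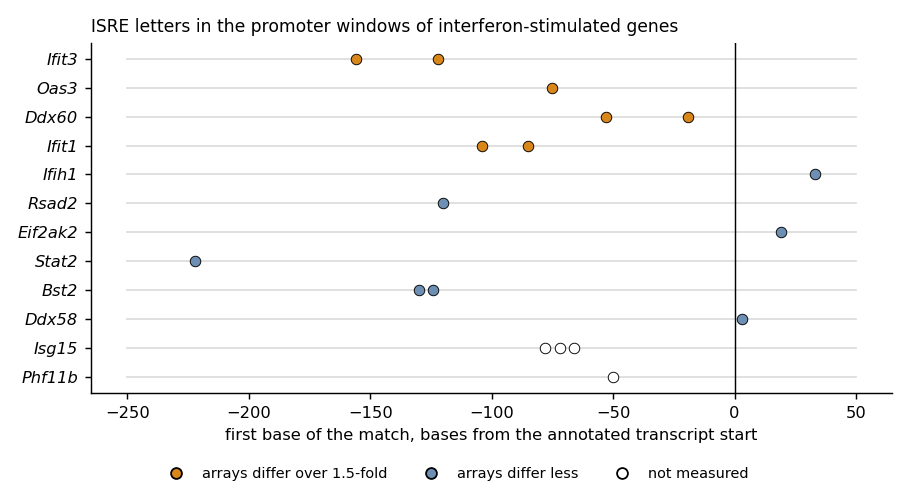
First base of each ISRE core match (circles) in the promoter windows (grey lines) of the 12 ISGs that held one, in bases from the annotated transcript start, which is the vertical line. Orange marks genes whose arrays differed by more than 1.5-fold, blue those that differed less and white those without a value. Most matches lie before the start, and the 3 of Isg15 lie side by side.

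The position of the cores can be set beside the arrays. Among measured ISGs with a window, 4 of the 10 with the core and 2 of the 18 without it, Oasl1 and Oasl2, had arrays that differed by more than 1.5-fold. Of the 9 measured ISGs without a window 5 differed by as much, namely Mx1, Mx2, Oas2, Rtp4 and Usp18. Over the whole list 11 of 37 did, against 1.79% of all genes. With those 9 unclassed, the counts cannot tell whether the core goes with the difference. In the plot of match positions the cores of Ifit3, Oas3, Ddx60 and Ifit1 all begin before the start. Of the measured genes that differed less, those of Stat2, Bst2 and Rsad2 also begin before it, and those of Ddx58, Eif2ak2 and Ifih1 after it.

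The main pattern of the list was a high PLZF+/lu array. PLZF+/lu was strictly the highest of the 3 arrays at 25 of the 37 ISGs, against 13.0% of all genes. It was the lowest at none, against 11.4% of all genes. It lay between the other genotypes, the place that a graded effect of PLZF dose would give, at 2 ISGs, Oas3 and Parp12, against 11.4% of all genes. At 7 ISGs it was equal to 1 of the other arrays, against 17.4% of all genes. Trex1, Dtx3l and Irf9 were equal on all 3, against 46.8%. Since equal values are so common in the deposited table, the place was also read after other scalings. With quantile normalization 34 of the 37 were highest in PLZF+/lu against 29.3% of all genes, and with cyclic loess 34 against 26.8%. With median centring 23 were, against 10.9%. Where deposited values within 0.05 on the log2 scale counted as equal, 22 were, against 7.72%. Over the list, PLZF+/lu stood above the mean of the other arrays by a median of 0.22 on the log2 scale, against 0.00 over all genes.

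**Figure D2:**
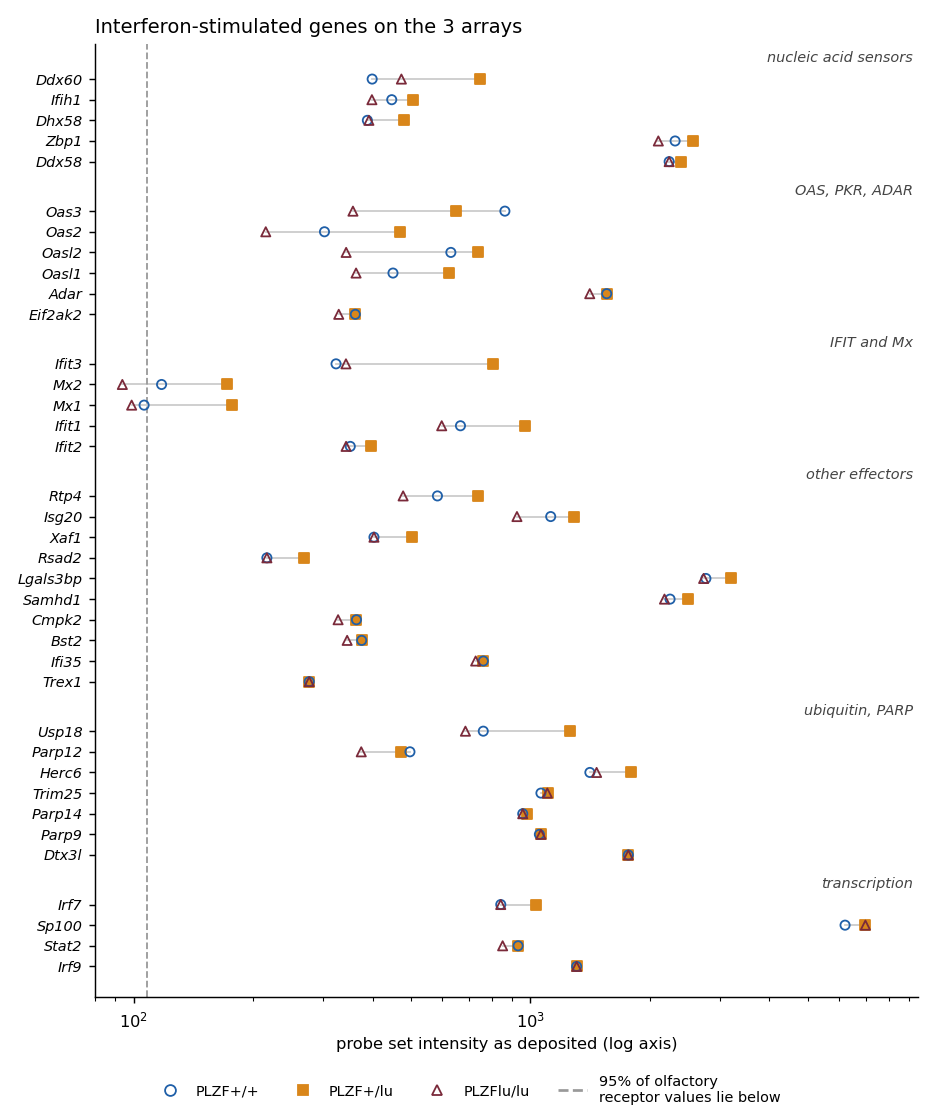
Deposited probe set intensities (log axis) of the 37 measured ISGs, grouped by role, which have no error bars for want of replicates. Open circles stand for PLZF+/+, orange squares PLZF+/lu and open triangles PLZFlu/lu, and grey lines join the lowest and highest array. The square is the rightmost symbol for 25 genes, and the dashed line marks the level of 108.

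Below the high PLZF+/lu array the homozygous genotypes were ordered less evenly. Of the 25 ISGs highest in PLZF+/lu, PLZF+/+ exceeded PLZFlu/lu at 15, was equal to it at 4 (Ddx58, Rsad2, Xaf1 and Parp14) and lay under it at 6 (Dhx58, Ddx60, Ifit3, Herc6, Trim25 and Sp100). Those orders with equal and with lower PLZF+/+ made up 7.97% and 2.72% of all genes. The order PLZF+/lu, PLZF+/+, PLZFlu/lu was thus the most frequent, at 15 of 37 ISGs against 2.31% of all genes. It counts any difference, and some between the homozygous arrays were very small. On the log2 scale they were 0.0004 at Irf7, 0.019 at Lgals3bp, 0.035 at Ifit2 and 0.047 at Samhd1. At 6 more genes, Eif2ak2, Adar, Cmpk2, Bst2, Ifi35 and Stat2, the PLZF+/+ and PLZF+/lu arrays were equal and PLZFlu/lu was lower. This order made up 4.58% of all genes. The full dose order of PLZF+/+, PLZF+/lu and PLZFlu/lu was seen at Oas3 and Parp12 alone, against 6.99% of all genes.

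Between PLZF+/+ and PLZFlu/lu, the comparison with the largest difference in PLZF, most ISGs were close. Of the 37, 23 were higher in PLZF+/+, 7 lower and 7 equal, with a median log2 difference of 0.06 against 0.00 over all genes. Of all 19518 genes, 4866 were higher, 3308 lower and 11344 equal. More than 1.5-fold higher in PLZF+/+ were 2 ISGs, Oas3 and Oasl2, against 0.856% of all genes, and 0 were lower by as much, against 0.579%. Oas3 was the single member past 2-fold, against 0.272% of all genes. A fold here is a rule of size on 2 arrays and has no replicate check.

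Between PLZF+/lu and PLZF+/+ the ISGs leaned towards the heterozygote. Of the 37, 26 were higher in PLZF+/lu, 2 lower and 9 equal, with a median log2 difference of 0.17 against 0.00 over all genes. Of all 19518 genes, 4135 were higher, 4606 lower and 10777 equal. More than 1.5-fold higher were 5, namely Ifit3, Ddx60, Mx1, Usp18 and Oas2, against 0.251% of all genes, and 0 were lower by as much, against 0.543%. Oas2 lay at the threshold, with a 1.55-fold difference that fell under 1.5-fold when 32 was added to each intensity (0.58 on the log2 scale).

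The widest gap was that between PLZF+/lu and PLZFlu/lu. Of the 37, 33 were higher in PLZF+/lu, 0 lower and 4 equal, with a median log2 difference of 0.29 against 0.00 over all genes. Of all 19518 genes, 4794 were higher, 3845 lower and 10879 equal. More than 1.5-fold higher were 11, namely Ifit3, Oas2, Oasl2, Usp18, Mx2, Oas3, Mx1, Oasl1, Ifit1, Ddx60 and Rtp4, against 0.297% of all genes. None was lower by as much, against 0.236%. More than 2-fold higher were Ifit3, Oas2 and Oasl2, against 0.0769% of all genes. The PLZF+/lu array is shared by this comparison and the last, so they are not separate evidence.

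**Figure D3:**
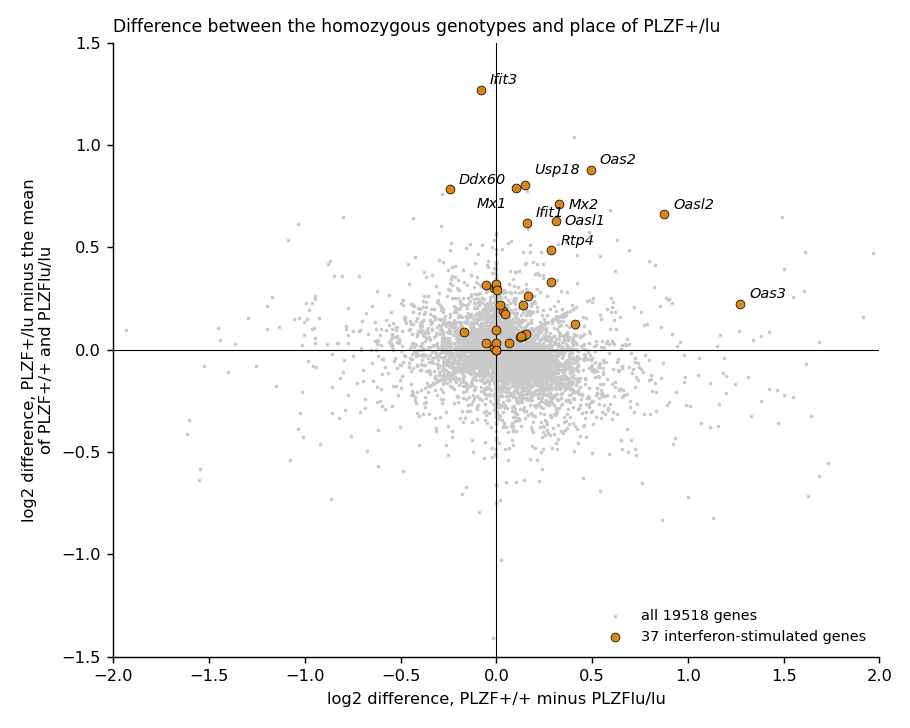
Each point is a gene: the horizontal axis is the log2 difference of PLZF+/+ minus PLZFlu/lu and the vertical axis that of PLZF+/lu minus the mean of both. Grey points are all 19518 genes, of which 11 lie outside the axes, and orange points the 37 ISGs, with names where arrays differed by more than 1.5-fold. Ifit3 lies at the top near the vertical axis, and Oas3 to the right near the horizontal one.

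The plot of both differences separates the members. A gene that follows PLZF dose lies far from the vertical axis and near the horizontal one, and Oas3 was the member closest to this, at 1.27 on the horizontal axis and 0.23 on the vertical. Ifit3 was the opposite, at -0.08 and 1.27. Oasl2 had a large value on both, with 0.88 and 0.66, and Oas2 followed with 0.49 and 0.88. Genes more than 1.5-fold above both homozygous arrays in PLZF+/lu numbered 8, or 0.041% of all genes, a count added after the values were seen. Of these 8, 5 were members of the list, namely Ifit3, Ddx60, Mx1, Oas2 and Usp18. The others were Slfn1, of the interferon-induced Schlafen family, Scn2b, a sodium channel subunit gene, and Xlr, which lay below 108 on all arrays.

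Among the sensors of foreign nucleic acid, PLZF+/lu was highest at 5 of 5. Ddx60, a helicase that assists the RNA sensors, was at an intensity of 399, 748 and 473. The PLZF+/lu array thus stood 1.87-fold above PLZF+/+ and 1.58-fold above PLZFlu/lu, with the homozygous arrays closer to each other. Ifih1, which encodes the long double-stranded RNA sensor MDA5, was at 447, 506 and 399 in the same order. Dhx58, which encodes the regulator LGP2, was at 388, 480 and 392, so that only PLZF+/lu stood apart. Ddx58, which encodes the sensor RIG-I, and Zbp1, a sensor of Z-form nucleic acid, differed by 1.07-fold and 1.22-fold between their highest and lowest arrays.

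The OAS family, which synthesizes the 2′-5′-linked oligoadenylates that activate RNase L, and its relatives held 4 of the 11 members past 1.5-fold. Oas3, the member best fitted to long double-stranded RNA, was at 862, 649 and 357. PLZF+/+ was the highest array here, 2.41-fold above PLZFlu/lu, and PLZF+/lu was 1.82-fold above it. Oas2 was at 303, 470 and 215, so that PLZF+/lu was 2.18-fold above PLZFlu/lu and PLZF+/+ 1.41-fold above it. Oasl2, an OAS-like protein with ubiquitin-like domains, was at 630, 736 and 343, and both arrays with a wild-type allele lay well above PLZFlu/lu, by 1.84-fold and 2.14-fold. Oasl1, a translational inhibitor of Irf7, was at 450, 625 and 364, a 1.72-fold gap between PLZF+/lu and PLZFlu/lu. All 4 of these genes were lowest in PLZFlu/lu. Eif2ak2, which encodes the kinase PKR, and Adar, an RNA-editing enzyme, were each equal in PLZF+/+ and PLZF+/lu and lower by 1.10-fold in PLZFlu/lu.

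The IFIT proteins bind viral RNA and block its translation, and the Mx proteins are dynamin-like GTPases. PLZF+/lu was highest at all 5 measured genes of these families. Ifit3 was at 324, 804 and 343, 2.48-fold and 2.34-fold above the homozygous arrays, and had the largest difference of any member. Ifit3b, a near-identical copy, lay below 108 on all arrays, and the 2 cannot be fully told apart by hybridisation. Ifit1 was at 666, 971 and 597, or 1.46-fold above PLZF+/+ and 1.62-fold above PLZFlu/lu. Ifit2, from the same gene cluster, was at 352, 396 and 343, a spread of 1.15-fold. These neighbouring genes of a single family had the same highest array, while PLZF+/+ was the lowest for Ifit3 and PLZFlu/lu for Ifit1 and Ifit2.

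Mx1, of which C57BL/6 mice carry a defective allele, was at 106, 177 and 98.9. Only PLZF+/lu exceeded the level of 108, so it was at least 1.64-fold higher than either, taken against that level. Mx2 was at 118, 172 and 93.7, and PLZF+/lu was at least 1.59-fold above PLZFlu/lu by the same measure. Both genes sat near the floor, where a fold is least exact.

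Among the 10 other effectors PLZF+/lu was highest at 6, and differences were small. Rtp4, a chaperone of receptors that also restrains viral replication, was at 583, 739 and 478, a 1.55-fold range that falls just past 1.5-fold. Isg20, an exonuclease, was at 1125, 1284 and 925. Xaf1, a regulator of apoptosis, and Rsad2, which encodes the radical SAM enzyme viperin, each had equal homozygous arrays, at 403 and 217, and a higher PLZF+/lu array, at 504 and 268. The dNTP hydrolase gene Samhd1 and the secreted glycoprotein gene Lgals3bp were also highest in PLZF+/lu, by 1.15-fold and 1.17-fold over PLZFlu/lu. Cmpk2, a mitochondrial nucleotide kinase beside Rsad2 in the genome, Bst2, which encodes the virion tether tetherin, and Ifi35 differed by at most 1.11-fold. The DNase gene Trex1 was at 277 on all 3 arrays.

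Of the ISG15 system, Usp18 stood out. It encodes the protease that removes ISG15 and that also dampens signalling at IFNAR2, and it was at 760, 1260 and 686. PLZF+/lu was 1.66-fold and 1.84-fold above the others, which differed by 1.11-fold. Herc6, the main ISG15 ligase of mice, was at 1412, 1789 and 1468, with PLZF+/lu again alone at the top. Trim25, a ubiquitin ligase that acts on RIG-I, had a range of 1.04-fold. Of the poly-ADP-ribose polymerases, Parp12 was at 497, 471 and 375, in the order of PLZF dose. Parp9 and its ligase partner Dtx3l, which work as a complex, differed by 1.01-fold and not at all, and Parp14 by 1.02-fold.

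In the transcription group the highest array exceeded the lowest by at most 1.22-fold. Irf7, the amplifier of interferon production, was at 842, 1031 and 841, so that PLZF+/lu was 1.22-fold above either. Sp100, a nuclear body component, was at 6206, 6987 and 6983, with PLZF+/+ the low array. Stat2 was at 931, 931 and 851, and Irf9 at 1307 on all 3 arrays.

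Members differed in the size of the difference as well as in the order of the arrays. Of the 37, 11 had a highest array more than 1.5-fold above the lowest, against 1.79% of all genes. PLZF+/lu was the highest array in 10 of the 11, Oas3 being the exception, and genes that passed this rule with PLZF+/lu highest made up 0.19% of all genes. PLZFlu/lu was the lowest in 9 of the 11, with Ddx60 and Ifit3 the exceptions. Where PLZF+/lu is highest, PLZFlu/lu can only lie in the middle, lowest or tied. This count was not made over all genes, so nothing is read from it. The other 26 ran from equal values to a 1.39-fold range, and 15 of these were still highest in PLZF+/lu.

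Other genes induced by type I interferon leaned the same way, with less regularity. Of a list of 53 such genes 44 were measured, and PLZF+/lu was highest at 20, between at 7 and lowest at 1. Over all genes these places made up 13.0%, 11.4% and 11.4%. More than 1.5-fold above PLZFlu/lu in PLZF+/lu were 2, Slfn1 and Phf11a, against 0.297% of all genes. Slfn1 was at 658, 1174 and 496. Phf11a was at 86.0, 126 and 73.1, with 1 array above the floor. Not all followed the pattern. Ifi203, a DNA-binding protein of the HIN200 family, ran against PLZF dose at 3044, 4149 and 5406, and Plac8 ran with it at 1448, 883 and 831.

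Among 21 measured genes of 27 that respond mainly to interferon-γ, PLZF+/lu was highest at 8 and between at 5, against 13.0% and 11.4% of all genes. The guanylate-binding protein gene Gbp9 was at 1022, 1693 and 2039, highest in PLZFlu/lu and so opposite in direction to Oas3. Nlrc5, the activator of MHC class I genes, was at 1970, 3089 and 2709 by the brightest of its 19 probe sets. Gbp9 and Nlrc5, 2 of the 21, were more than 1.5-fold higher in PLZF+/lu than in PLZF+/+, where 5 of the 37 ISGs and 0.251% of all genes were. Between PLZF+/lu and PLZFlu/lu 0 of the 21 differed by as much, where 11 of the 37 ISGs did. Over all genes 0.297% were higher by as much and 0.236% lower, so that 0 of 21 is near the share of all genes.

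**Figure D4:**
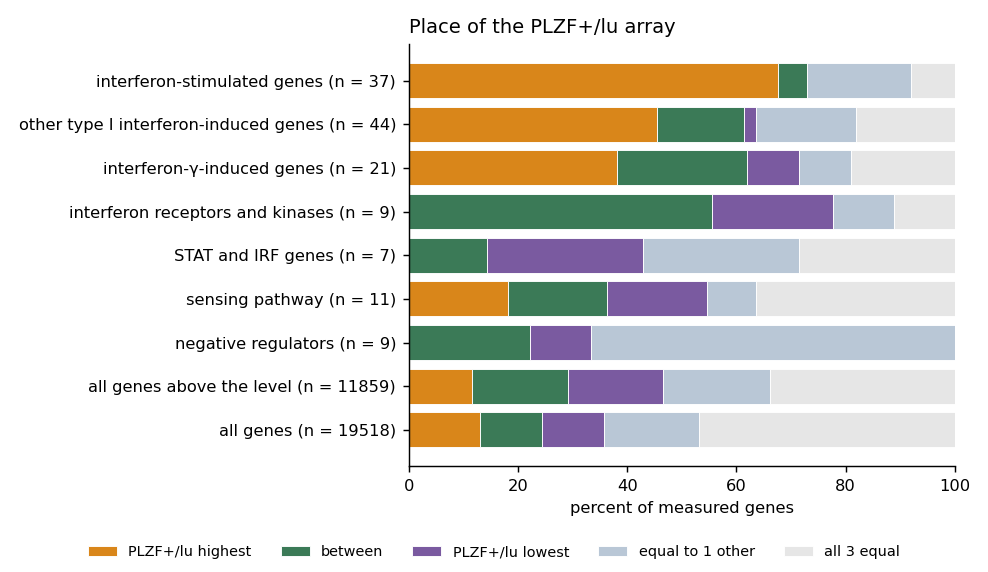
Percent of measured genes in each list by the place of the PLZF+/lu array: highest (orange), between the others (green), lowest (purple), equal to 1 other array (blue-grey) or all 3 equal (light grey). The number measured is given with each list, and Irf1 and Socs1 stand in more than 1 list. The orange share is 67.6% for the ISGs, 45.5% for other type I interferon-induced genes, 0 for receptors and kinases and 13.0% for all genes.

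The genes that carry the interferon signal were read in the same way. Of 9 receptor and kinase genes none was highest in PLZF+/lu, against 13.0% of all genes, and 9 genes are too few to tell this from that share. At 5 of the 9 PLZF+/lu lay between the homozygous arrays, against 11.4% of all genes. Ifngr1, the ligand-binding chain of the interferon-γ receptor, was at 1872, 3906 and 7152, and Ifngr2, its signalling chain, ran the other way at 1602, 1135 and 967. The type I receptor chains Ifnar1 and Ifnar2 had ranges of 1.04-fold and 1.20-fold and were both highest in PLZFlu/lu. Of 7 measured STAT and IRF genes outside the ISG list, Irf4 differed by more than 1.5-fold, at 135, 95.8 and 79.3, with 1 array above the floor. The sensing pathway (11 of 12 genes measured, among them Mavs and Sting1) and the negative regulators (9 genes, among them Socs1) held no gene past 1.5-fold. PLZF+/lu was highest at 2 genes of the sensing pathway, Ikbke and Tlr9, and at 0 of the negative regulators. Over all genes 1.79% passed 1.5-fold and 13.0% were highest in PLZF+/lu. These lists are too short to tell their counts from those shares.

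Interferon transcripts were also read. Of 16 interferon genes 13 were measured and none differed by more than 1.5-fold, against 1.79% of all genes. None of 13 is near that share, and 6 of them were equal on all 3 arrays. Ifnb1 was at 41.6 on all 3 arrays and Ifng between 84.3 and 91.1, both under the floor. Ifnl2 was at 415, 560 and 487, and Ifna2, Ifna5, Ifna9 and Ifna14 lay above the floor with ranges of at most 1.05-fold. The Ifna genes are near-identical copies of each other, so these values are uncertain.

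Markers of other cells were set beside the list, since bulk RNA cannot tell fewer cells of a type from less RNA per cell. Of 8 plasmacytoid dendritic cell markers 7 were measured, with sums of intensities of 1820, 1900 and 1878. Siglech was at 146 on all 3 arrays. Of 13 markers of macrophages and dendritic cells, 11 were under the floor on all arrays and the sums were 1279, 1256 and 1273, with Lyz2 at 69.1 on each. The sums of 5 neutrophil markers were 376, 410 and 376, of which S100a9 was at 115, 135 and 115. The NK cell, B cell, erythroid and thymic epithelial lists held no gene past 1.5-fold, with sums of 413 to 426, 1626 to 1878, 214 to 215 and 842 to 882. Markers of CD4+CD8+ thymocytes summed to 3619, 4774 and 5678, in order of the mutant allele, so that PLZF+/lu lay between. The sum rose mainly through Cd8b1, at 1290, 2263 and 2958, and Cd8a, at 369, 519 and 601. Cd8a is absent from the surface of the cells by the sort, and the study lists Cd8b1 among genes lower in the presence of PLZF. Of the 7 markers measured, PLZF+/lu lay between at 3 and was lowest at 2, among them Dntt at 162, 157 and 210. The other 2, Ptcra and Cd1d1, were equal on all 3 arrays. The part of other cells in the ISG pattern was not tested.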

How the data were processed

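Expression was measured in 3 samples, 1 per genotype, grouped by the genotype in the labels. In GenePattern the authors ran ExpressionFileCreator, then MultiplotPreprocess and Multiplot, and dropped normalization controls. They deposited 24800 linear intensities for each array, 1 per probe set. The processing notes name the build mm8. How probe sets were summarised and scaled is not given in the sources used. A summary that returns equal values on several arrays can hide small differences. No column lacked a sample. The intensities were used as deposited, on the log2 scale.

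Probe sets were named from the platform annotation when exactly 1 gene was listed (21065, against 1187 with several and 2548 with none), and 20983 symbols were updated to GRCm38.p6. A gene with several probe sets was represented by its brightest, by mean log2 intensity, which left 19518 genes. Log2 values less than 1e-06 apart counted as equal. Since there was 1 array per genotype, no test was run, and more than 1.5-fold or 2-fold served as a rule of size. Precision is limited by the number of arrays.

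The members and lists were chosen with earlier results of these data known. Members were given their 3 intensities where the highest array exceeded the lowest by more than 1.5-fold, and at least 2 per role group. Genes of the pathway lists were named by the same fold where above the olfactory receptor level of 108, at most 5 per list. Folds against that level were added after the values were seen. The alternatives were cyclic loess, median centring, quantile normalization, an offset of 32, a filter on dim genes, averaging a gene's probe sets, a 2-fold threshold, and a tolerance of 0.05 for equal values. The counting was checked on simulated arrays. Scaling used limma 3.58.1 in R 4.3.3, and counts and plots used Python 3.11.15, numpy 2.4.6, pandas 2.3.3 and matplotlib 3.10.9.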

Additional observations from a re-analysis of the deposited data

How the results depend on the processing

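No paired analysis was possible because each genotype has 1 array. The counts of ISGs past 1.5-fold stayed at 2 for PLZF+/+ against PLZFlu/lu and at 11 for PLZF+/lu against PLZFlu/lu under the 3 other scalings and with 32 added. For PLZF+/lu against PLZF+/+ they ran from 4 to 6 around the 5 reported. At a 2-fold threshold the counts were 1, 3 and 1 in the same order. PLZF+/lu was the highest array at 22 to 34 of the 37 ISGs, with 23 after median centring and 22 where differences within 0.05 on the log2 scale counted as equal. Under these settings the share of all genes ran from 7.72% to 29.3%. Of 18 gene differences past 1.5-fold, none changed direction, and Oas2 between PLZF+/lu and PLZF+/+ was the one that fell under the threshold, with 32 added. The filter on dim genes and the mean over probe sets could not move any count of ISGs, since all 37 ISGs passed the filter and each has 1 probe set. No array could be left out in turn, since that removes a genotype.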

Other observations

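The profile of the list was also used to look for genes outside every list that ran like it. The mean of the 37 ISGs, after each gene was centred over the 3 arrays, was -0.03, 0.21 and -0.17 on the log2 scale, again in the order PLZF+/+, PLZF+/lu, PLZFlu/lu. The 10 genes nearest to it by Euclidean distance, among 11617 that lay above 108 on every array, were Gm12250, Rab6b, Atad3a, Prp2, Snord16a, Misp3, Polr2k, Myrip, Ptprv and Sik1. Gm12250 was nearest, at 170, 201 and 152, and Sik1, a salt-inducible kinase gene, was at 892, 1117 and 822. With 3 arrays a profile has few degrees of freedom, and likeness of this kind is a description only.

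Scn2b was at 130, 211 and 117. With Slfn1 it was the gene outside the ISG list that lay above 108 and more than 1.5-fold over both homozygous arrays in PLZF+/lu.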
